A study of Mus musculus with 12 samples.

Results

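The 9 genes described here encode complement proteins and their receptors: the 3 chains of C1q (C1qa, C1qb and C1qc), the components C3 and C4b, factor B (Cfb) and properdin (Cfp) of the alternative pathway, and the receptors C3ar1 and C5ar1. They were chosen by symbol among the 52636 genes of the count table, each symbol matched 1 gene, and all 9 were among the 16679 genes with enough reads to be tested. RNA came from mouse lung Cx3cr1+ macrophages, cells that carry the fractalkine receptor, and was sequenced in 3 groups of 4 libraries. The groups were labelled bleomycin-treated with the genotype IL4Ra KO, bleomycin-treated with IL4Ra WT, and saline-treated with IL4Ra WT. They are called bleomycin KO, bleomycin WT and saline WT below. Bleomycin is a drug that injures the lung and is used to produce fibrosis in mice, and IL4Ra is the chain through which both IL-4 and IL-13 signal. No saline group of the KO genotype was analysed here, so the KO genotype was seen only together with bleomycin. The driver of the deletion, the dose, the time after treatment, and the age and sex of the mice are not stated in the labels. Nor is it stated that the libraries came from separate animals, so p-values measure the spread between these libraries.

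Complement is a set of plasma and cell-surface proteins that tag microbes, immune complexes and dying cells. C1q recognises such targets and starts the classical pathway, which cuts C4 and then C3, while factor B and properdin build and stabilise the C3-cutting enzyme of the alternative pathway. The small fragments C3a and C5a released on the way act on C3aR1 and C5aR1, receptors of myeloid cells. Tissue macrophages are a main source of C1q, whereas most circulating C3, C4 and factor B comes from the liver.

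The genes of the 3 C1q chains lie next to each other on chromosome 4, and their levels lay close together across libraries, as did that of C3ar1 (below). The RefSeq sequence just before the start of the gene was therefore looked up, and promoters of 6 of the 9 members were matched in the RefSeq table (build GRCm38.p6). Those of C1qb, C1qc and C3ar1 are printed 5′ to 3′ on the strand of the gene, which is the minus strand for each. Capitals mark AGGAAG or its reverse complement CTTCCT, the core that PU.1, a transcription factor of macrophages, is known to bind.
C1qb, chr4:136886201-136886450, 250 bases: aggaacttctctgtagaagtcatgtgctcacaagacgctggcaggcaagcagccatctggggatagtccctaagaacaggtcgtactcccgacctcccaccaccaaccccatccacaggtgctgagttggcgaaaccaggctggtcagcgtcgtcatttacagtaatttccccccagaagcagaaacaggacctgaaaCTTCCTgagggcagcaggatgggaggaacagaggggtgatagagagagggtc
C1qc, chr4:136893066-136893164, 99 bases: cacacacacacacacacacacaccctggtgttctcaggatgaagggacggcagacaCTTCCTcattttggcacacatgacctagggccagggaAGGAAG
C3ar1, chr6:122856162-122856407, 246 bases: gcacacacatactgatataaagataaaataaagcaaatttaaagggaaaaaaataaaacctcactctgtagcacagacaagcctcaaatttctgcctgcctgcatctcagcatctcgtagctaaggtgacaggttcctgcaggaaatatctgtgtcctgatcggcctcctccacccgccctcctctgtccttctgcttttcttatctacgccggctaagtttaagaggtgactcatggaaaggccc
Only bases outside the annotated genes are shown, so that 151 bases nearest the RefSeq start were left out for C1qc and 4 for C3ar1.

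The motif search covered both strands of the 250 bases before each RefSeq start. AGGAAG stood once in the window of C1qb, 52 bases before the start, in 2 places in that of C1qc and in 3 places in that of C5ar1, of which 2 overlapped. All 3 places of C5ar1 lie in the 202 bases nearest its RefSeq start, which fall inside the annotated gene. AGGAAG was not in the windows of C3, C3ar1 and Cfp, and 29.5% of all 32851 promoters of the table held it. TGCTGA, a MAF-type element, stood once each in C1qb, C3, C3ar1 and C5ar1, against 16.1% of all promoters with a match. That of C5ar1, 17 bases before the RefSeq start, also lies inside the annotated gene. TGANTCA, an AP-1 element, was found only in C3ar1 among the 6, as tgactca 22 bases before its start, and in 6.75% of all promoters. The palindrome of TTC and GAA with 4 bases between them, which STAT6 downstream of IL-4 is known to bind, was in none of the 6 windows and in 5.85% of all promoters. An interferon regulatory element, GAAA repeated after 2 bases, was in none of the 6 and in 2.98% of all. These are matches of letters only.

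Depth differed strongly between libraries. Total counts ranged over 8514384 to 16842991 in bleomycin KO, 9600870 to 18051113 in bleomycin WT, and 60598 to 10168525 in saline WT. The lowest total was that of saline WT replicate 2, in which 4830 genes had a count, against 17835 to 30283 genes in the other 11 libraries. In it, 3 counts correspond to 32.4 CPM (counts relative to the total of the library, with totals scaled by TMM), while in the other libraries 3 counts correspond to 0.185 to 0.730 CPM. Bleomycin WT replicate 4 stood apart in another way. Csf1r, the receptor that macrophages need for survival, was at 273 CPM there, against 1220 to 2579 CPM in the other 7 bleomycin libraries. Its Cx3cr1 was at 7.46 CPM, against 53.5 to 121 CPM in those 7 libraries. Other macrophage markers were high there. Cd68 was at 4718 CPM, the highest of bleomycin WT. Interstitial macrophage markers summed to 5205 CPM, against 1222 to 2283 CPM in those 7 libraries. Sums of endothelial, T and NK cell, and B and plasma cell markers were also the highest of the bleomycin libraries. Values in the 10 libraries without saline WT replicate 2 and bleomycin WT replicate 4 are given further below. They cover the members, some of their ratios and the receptor genes Itgax, Cd93, C5ar2 and Cr2.

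The summed level of 7 macrophage markers (Cx3cr1, Csf1r, Adgre1, Mertk, Cd68, Fcgr1 and Lyz2) was 38785 to 59720.5 CPM in bleomycin KO and 20255 to 42847 CPM in bleomycin WT, against 11566 to 31641 CPM in saline WT. Lyz2 made up most of each sum, averaging 42109 CPM in bleomycin KO and 31009 CPM in bleomycin WT, against 19982 CPM in saline WT. In each comparison with saline WT, 5 of the 7 markers had a positive and 2 a negative log2 fold change. Those with a negative one were Csf1r, which averaged 1494 CPM in bleomycin KO and 1328 CPM in bleomycin WT, against 1528 CPM in saline WT, and Cx3cr1. Cx3cr1, the marker that names these cells, averaged 97.3 CPM in bleomycin KO and 57.0 CPM in bleomycin WT, against 343 CPM in saline WT. That saline mean has an SD of 401 CPM, over a range of 98.1 to 940 CPM. The value of 940 CPM is that of saline WT replicate 2, the library of few counts, so the saline level of Cx3cr1 is uncertain. None of the 7 was at 0 throughout a group, although Mertk had 0 counts in saline WT replicate 2. Markers of other cells were also present, and of the 14 marker lists read, 0 genes passed the test used below in any comparison. Against saline WT, all 7 non-classical monocyte markers had negative log2 fold changes (median -2.96 for bleomycin WT, -2.31 for bleomycin KO). So did all 8 alveolar macrophage markers (median -1.18 and -0.81). Of 8 interstitial macrophage markers, 5 were positive with bleomycin WT and 4 with bleomycin KO. Of 6 classical monocyte markers 2 were positive with each, and all 6 T and NK cell markers were. The 8 neutrophil markers summed to 1101 to 1793 CPM in bleomycin KO and 553 to 1506 CPM in bleomycin WT, against 2550 to 28065 CPM in saline WT. The 8 lung epithelial markers summed to 122 to 555 CPM in bleomycin KO and 127 to 835 CPM in bleomycin WT, against 1431 to 2343 CPM in saline WT.

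Il4ra was examined as a check of the genotype labels. It stood at 473, 277, 235 and 343 CPM in replicates 1 to 4 of bleomycin KO, at 351, 626, 302 and 138 CPM in bleomycin WT, and at 111, 32.4, 262 and 302 CPM in saline WT. The libraries labelled KO averaged 332 ± 104 CPM, bleomycin WT averaged 355 ± 203 CPM (SD, n = 4 each), and the 2 groups overlapped. The log2 fold change of KO over WT was -0.09 (SE 0.58, adjusted p = 0.9998 by edgeR's quasi-likelihood fit with Benjamini-Hochberg). In the 10 libraries without saline WT replicate 2 and bleomycin WT replicate 4, Il4ra averaged 334 ± 99.5 CPM in bleomycin KO (n = 4) and 426 ± 170 CPM in bleomycin WT (SD, n = 3). The 2 groups still overlapped, with a log2 fold change of -0.35 (SE 0.37, adjusted p = 0.9999 in edgeR). Counts of the whole gene also include exons outside any deleted part, so they do not show whether the labels are right. In every comparison below, KO therefore means the libraries labelled KO.

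None of the 9 members passed an adjusted p of 0.05 in the edgeR fit in any of the 3 comparisons. In the same fit 4 genes (0.024%) passed between bleomycin WT and saline WT, 0 (0%) between bleomycin KO and bleomycin WT, and 3 (0.018%) between bleomycin KO and saline WT. At an unadjusted p under 0.05, 3 members were higher in bleomycin WT than in saline WT, where 8.47% of all genes tested were. Likewise 3 were higher in bleomycin KO than in saline WT (2.96% of all genes tested), and 0 differed either way between bleomycin KO and bleomycin WT (3.88%). The median log2 fold change of the members was 0.84 for bleomycin WT over saline WT, against 0.08 over all genes tested, and 0.89 for bleomycin KO over saline WT, against 0.04. Between bleomycin KO and bleomycin WT it was -0.03, against -0.01 over all genes. The comparisons with saline WT share the same 4 saline libraries, so they are not independent of each other.

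**Figure D1:**
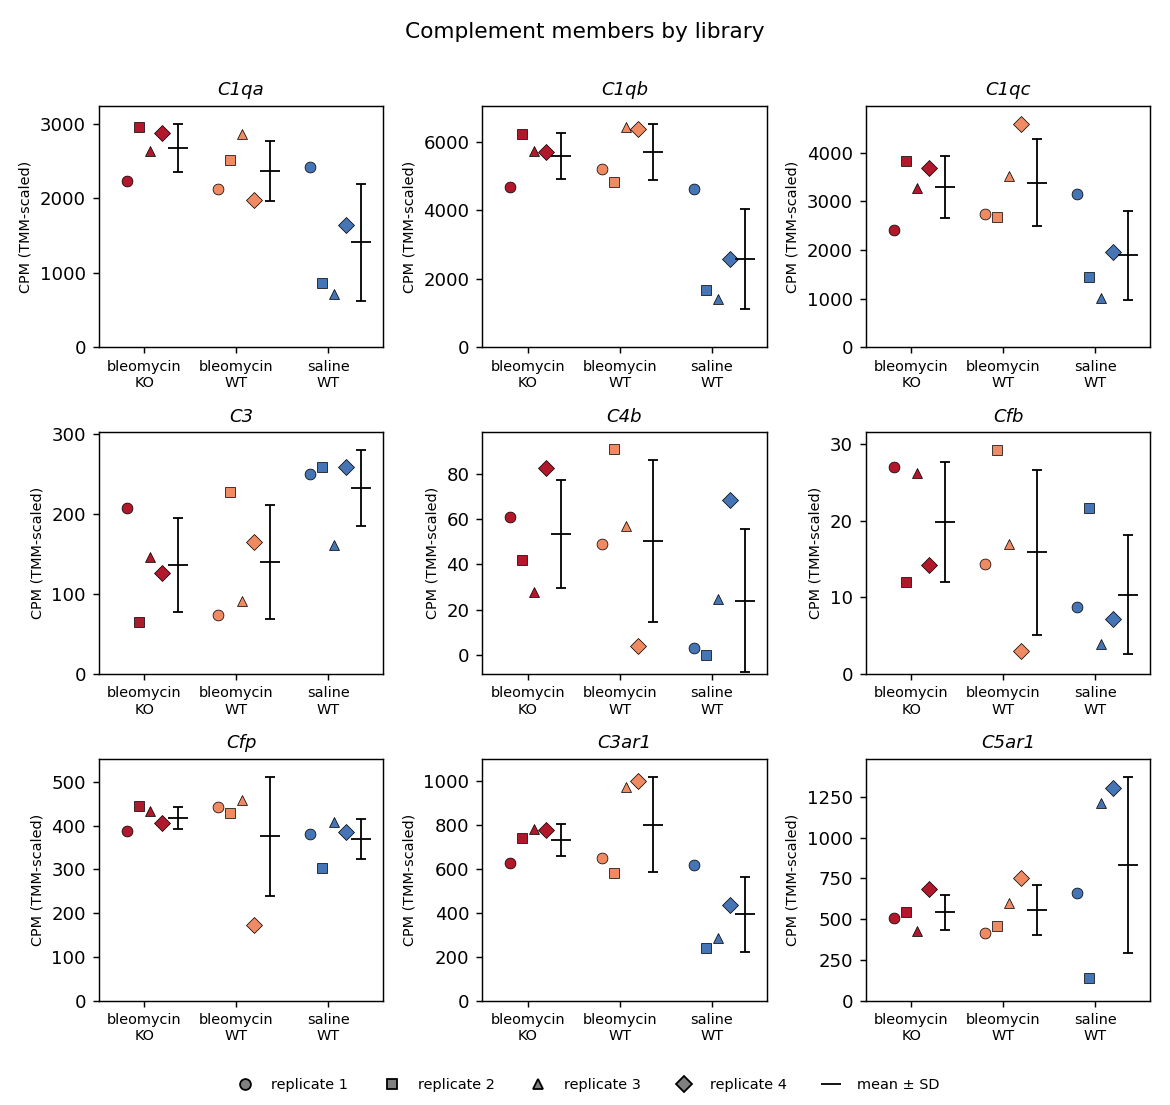
TMM-scaled CPM of the 9 complement members (vertical axis, linear) in each library of bleomycin KO, bleomycin WT and saline WT, with marker shapes for replicates 1 to 4 and the mean ± SD of 4 libraries beside each group. The C1qb values of all 8 bleomycin libraries lie above all 4 saline libraries, while saline WT replicate 1, at 4637 CPM, lies just under the lowest bleomycin library at 4672 CPM.

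C1qa, C1qb and C1qc encode the A, B and C chains that together form C1q, and they were the members with the most counts. C1qb (ENSMUSG00000036905, chr4:136880129-136886187) had 4672, 6245, 5746 and 5711 CPM in bleomycin KO, 5217, 4829, 6448 and 6381 CPM in bleomycin WT, and 4637, 1665, 1421 and 2577 CPM in saline WT. The lowest bleomycin library exceeded the highest saline library, so the groups did not overlap, but saline WT replicate 1 lay just below the lowest bleomycin library. In the 10 libraries described further below, which were scaled anew, the C1qb groups overlapped. C1qb averaged 5593 ± 661 CPM in bleomycin KO and 5719 ± 819 CPM in bleomycin WT, against 2575 ± 1462 CPM in saline WT (mean ± SD of 4 libraries each).

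The C1qb log2 fold change was 1.15 (SE 0.37, 95% interval 0.36 to 1.94, a fold of 2.22) for bleomycin WT over saline WT and 1.12 (SE 0.37, interval 0.33 to 1.90) for bleomycin KO over saline WT. Its Benjamini-Hochberg adjusted p in edgeR was 0.228 in bleomycin WT against saline WT and 0.365 in bleomycin KO against saline WT. Groups did not overlap, with the bleomycin group higher, for 4.93% of all genes in bleomycin WT against saline WT and for 8.17% in bleomycin KO against saline WT. C1qb was the member whose call depended on the tool. With limma-voom and quality weights, which give less weight to libraries that stand apart, its log2 fold change was 1.41 (adjusted p = 0.0136) for bleomycin WT over saline WT and 1.37 (adjusted p = 0.0173) for bleomycin KO over saline WT. That fit called 319 genes (1.91%) between bleomycin WT and saline WT and 232 genes (1.39%) between bleomycin KO and saline WT. Over 20 alternatives, the adjusted p of C1qb ranged over 0.0136 to 0.669 for bleomycin WT against saline WT and over 0.0173 to 0.728 for bleomycin KO against saline WT.

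C1qa (ENSMUSG00000036887, chr4:136895917-136898803) had 2227, 2955, 2637 and 2874 CPM in bleomycin KO, 2125, 2516, 2864 and 1969 CPM in bleomycin WT, and 2417, 865, 712 and 1634 CPM in saline WT. Here saline WT replicate 1 lay inside both bleomycin groups, while the other 3 saline libraries lay below every bleomycin library. Its log2 fold change was 0.75 (SE 0.39, interval -0.08 to 1.58) for bleomycin WT over saline WT, with adjusted p = 0.383 in edgeR's test. It was 0.92 (SE 0.39, interval 0.09 to 1.75) for bleomycin KO over saline WT, with adjusted p = 0.507.

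C1qc (ENSMUSG00000036896, chr4:136889804-136893065) had 2409, 3831, 3267 and 3689 CPM in bleomycin KO, 2732, 2682, 3523 and 4601 CPM in bleomycin WT, and 3146, 1438, 1006 and 1958 CPM in saline WT. The highest value was that of bleomycin WT replicate 4, and saline WT replicate 1 again lay within both bleomycin groups. For bleomycin WT over saline WT the log2 fold change of C1qc was 0.84 (SE 0.38, interval 0.03 to 1.65), and for bleomycin KO over saline WT it was 0.80 (SE 0.38, interval -0.0036 to 1.61). In edgeR's test the adjusted p was 0.328 with bleomycin WT and 0.553 with bleomycin KO.

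Of the single libraries, leaving out saline WT replicate 1 moved these values most. Without it the log2 fold change for bleomycin WT over saline WT was 1.61 for C1qb, 1.16 for C1qa and 1.22 for C1qc, and the adjusted p of C1qb was 0.164 in edgeR. Scaling also mattered: upper quartile scaling put the median of all genes at -0.31 in bleomycin WT against saline WT, where TMM put it at 0.08. On that scale the log2 fold change was 0.40 for C1qb, 0.04 for C1qa and 0.00 for C1qc. The 3 genes together took 0.880 to 1.28% of all counts of a library in bleomycin KO, 0.747 to 1.25% in bleomycin WT and 0.301 to 1.19% in saline WT. The macrophage marker sums given above, which are mostly Lyz2, were also lower in all 4 saline libraries than in all 4 bleomycin KO libraries, while those of saline WT and bleomycin WT overlapped through bleomycin WT replicate 4. Their part in the C1q levels was not tested. In bulk RNA, fewer cells of a type and less RNA per cell cannot be told apart.

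Between bleomycin KO and bleomycin WT the C1q genes differed by less than the spread between libraries. The log2 fold change of KO over WT was 0.17 (interval -0.65 to 0.999) for C1qa, -0.03 (interval -0.81 to 0.74) for C1qb and -0.04 (interval -0.84 to 0.77) for C1qc. Each had adjusted p = 0.9998 in edgeR. The KO and WT libraries overlapped for all 9 members, while they did not overlap for 1.5% of all genes tested.

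**Figure D2:**
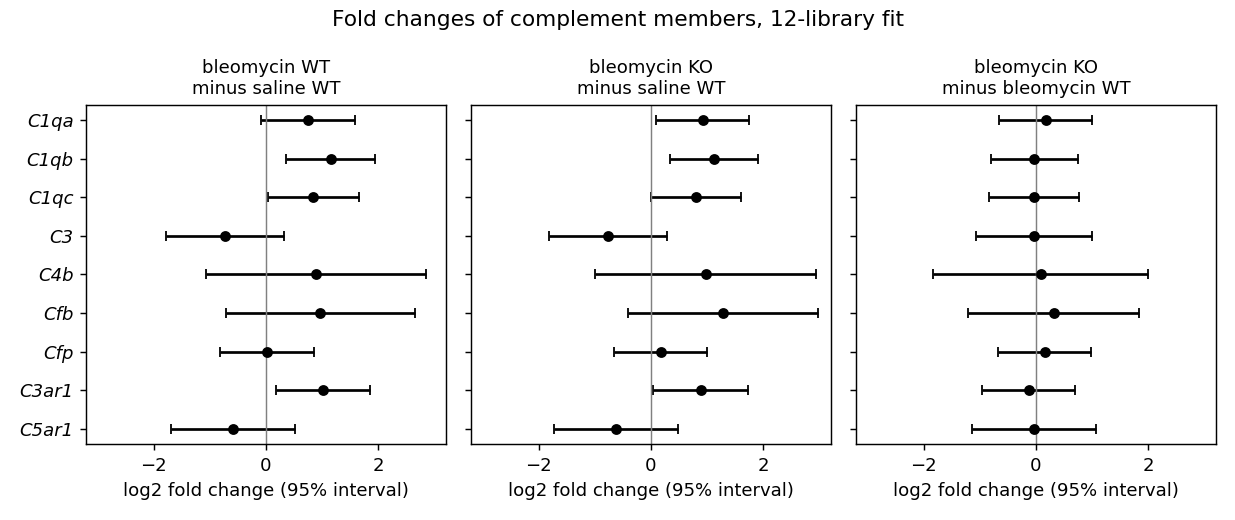
Log2 fold changes (points) with 95% intervals (bars) of the 9 members in the edgeR fit of 12 libraries, for bleomycin WT minus saline WT, bleomycin KO minus saline WT and bleomycin KO minus bleomycin WT. The C1qb intervals lie above 0 in both comparisons with saline (0.36 to 1.94 and 0.33 to 1.90), whereas all 9 intervals of bleomycin KO minus bleomycin WT include 0.

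C3 is the component on which all pathways converge, and its average was lower in both bleomycin groups than in saline WT. C3 (ENSMUSG00000024164, chr17:57203970-57228136) had 208, 65.4, 147 and 126 CPM in bleomycin KO, 73.3, 228, 91.9 and 166 CPM in bleomycin WT, and 250.3, 259, 161 and 259 CPM in saline WT. Of the saline libraries 3 lay within 10 CPM of each other, above every bleomycin library, and replicate 3 lay among the bleomycin libraries. The value of saline WT replicate 2 rests on 24 counts, so its closeness to the others is uncertain. C3 averaged 137 ± 58.8 CPM in bleomycin KO and 140 ± 71.3 CPM in bleomycin WT, against 232 ± 47.7 CPM in saline WT (mean ± SD of 4 libraries each). C3 had a log2 fold change of -0.73 (SE 0.50, adjusted p = 0.503) for bleomycin WT over saline WT and -0.76 (SE 0.50, adjusted p = 0.703) for bleomycin KO over saline WT in edgeR's test.

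Lung epithelial cells are also known to make C3, and the epithelial marker sums given above were higher in all 4 saline libraries than in all 8 bleomycin libraries. Of the 8 epithelial markers 7 had a negative log2 fold change in each comparison with saline WT, and 0 passed the threshold. Their part in the C3 levels was not tested. For bleomycin KO over bleomycin WT the log2 fold change of C3 was -0.03 (interval -1.07 to 1.004).

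C4b encodes the component C4 that C1-bound proteases cut. C4b (ENSMUSG00000073418, chr17:34728380-34743882) had 61.0, 41.9, 27.9 and 82.4 CPM in bleomycin KO, 49.0, 90.8, 57.0 and 4.09 CPM in bleomycin WT, and 3.16, 0, 24.8 and 68.4 CPM in saline WT. The groups overlapped throughout, and the value of 0, from saline WT replicate 2, allows up to 32.4 CPM at that depth. C4b had a log2 fold change of 0.89 (SE 0.93, adjusted p = 0.687) for bleomycin WT over saline WT, 0.97 (SE 0.93, adjusted p = 0.813) for bleomycin KO over saline WT, and 0.08 (SE 0.91, adjusted p = 0.9998) for bleomycin KO over bleomycin WT in edgeR's test. Of the 5737 distinct 50-base stretches of C4b transcripts, the length of the reads, 1983 (34.6%) also occur in its near copy C4a, which averaged 0.721 CPM. The labels do not say how such reads were counted, so the level of C4b is uncertain.

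Cfb encodes factor B, the protease of the alternative pathway, and it and C4b stood lowest of the members per kb of exon. Cfb (ENSMUSG00000090231, chr17:34856374-34862518) had 26.9, 11.9, 26.2 and 14.2 CPM in bleomycin KO, 14.3, 29.2, 16.9 and 3.02 CPM in bleomycin WT, and 8.76, 21.6, 3.896 and 7.10 CPM in saline WT. The saline value of 21.6 CPM rests on 2 counts in replicate 2, and the bleomycin value of 3.02 CPM is that of bleomycin WT replicate 4. Cfb had a log2 fold change of 0.97 (SE 0.79, adjusted p = 0.594) for bleomycin WT over saline WT and 1.29 (SE 0.80, adjusted p = 0.683) for bleomycin KO over saline WT in edgeR's test. For bleomycin KO over bleomycin WT it was 0.32 (interval -1.20 to 1.84). Exons of Cfb overlap those of Gm20547 on the same strand over 2246 bases (81.6% of its exonic length), and Gm20547 had 0 counts in all libraries. Of the 3012 distinct 50-base stretches of Cfb transcripts, 2199 (73%) also occur in Gm20547, so the level of Cfb is uncertain as well.

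Cfp encodes properdin, which myeloid cells release. Cfp (ENSMUSG00000001128, chrX:20925454-20931555) was nearly level across groups, at 388, 445, 432 and 405 CPM in bleomycin KO, 442.5, 428, 458 and 173 CPM in bleomycin WT, and 381, 303, 407 and 386 CPM in saline WT. Apart from bleomycin WT replicate 4 every library lay between 303 and 458 CPM. Log2 fold changes of Cfp were 0.02 (interval -0.81 to 0.85) for bleomycin WT over saline WT, 0.17 (interval -0.66 to 1.01) for bleomycin KO over saline WT and 0.15 (interval -0.68 to 0.98) for bleomycin KO over bleomycin WT. Its sign against saline WT changed with the scaling of the libraries.

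C3ar1 encodes the receptor for C3a. C3ar1 (ENSMUSG00000040552, chr6:122847138-122856161) had 628.5, 739.5, 780.1 and 776 CPM in bleomycin KO, 649, 580.5, 972 and 1001 CPM in bleomycin WT, and 618, 238, 283 and 434 CPM in saline WT. All 4 bleomycin KO libraries lay above all 4 saline libraries, by a small margin over saline WT replicate 1, whereas bleomycin WT replicate 2 lay below that library. Bleomycin KO lay wholly above saline WT for 8.17% of all genes tested. C3ar1 averaged 731 ± 70.8 CPM in bleomycin KO and 801 ± 217 CPM in bleomycin WT, against 393 ± 172 CPM in saline WT (mean ± SD of 4 libraries each). The log2 fold change was 1.02 (SE 0.40, interval 0.17 to 1.86, adjusted p = 0.279) for bleomycin WT over saline WT and 0.89 (SE 0.40, interval 0.04 to 1.73, adjusted p = 0.527) for bleomycin KO over saline WT in edgeR's test. Between bleomycin KO and bleomycin WT it was -0.13 (interval -0.96 to 0.70).

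C5ar1 encodes the receptor for C5a, and its saline libraries were the most spread of any member with more than 100 CPM. C5ar1 (ENSMUSG00000049130, chr7:16246743-16259540) had 505, 545, 427 and 687 CPM in bleomycin KO, 414, 455, 596 and 752 CPM in bleomycin WT, and 659.8, 141, 1213 and 1305.5 CPM in saline WT. The value of 141 CPM rests on 13 counts in saline WT replicate 2, and the 2 highest values are those of saline WT replicates 3 and 4. The log2 fold change was -0.59 (SE 0.52, adjusted p = 0.624) for bleomycin WT over saline WT, -0.63 (SE 0.52, adjusted p = 0.782) for bleomycin KO over saline WT and -0.03 (interval -1.13 to 1.06) for bleomycin KO over bleomycin WT in edgeR's test.

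Neutrophils are known to carry much C5aR1, and the 8 neutrophil markers summed to 28065 and 17379 CPM in saline WT replicates 3 and 4. In saline WT replicates 1 and 2 they summed to 2550 and 3362 CPM, and C5ar1 stood lower there. All 8 neutrophil markers had negative log2 fold changes in both comparisons with saline WT (median -3.34 for bleomycin WT and -3.26 for bleomycin KO), and 0 passed the threshold. Their part in the C5ar1 levels was not tested.

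**Figure D3:**
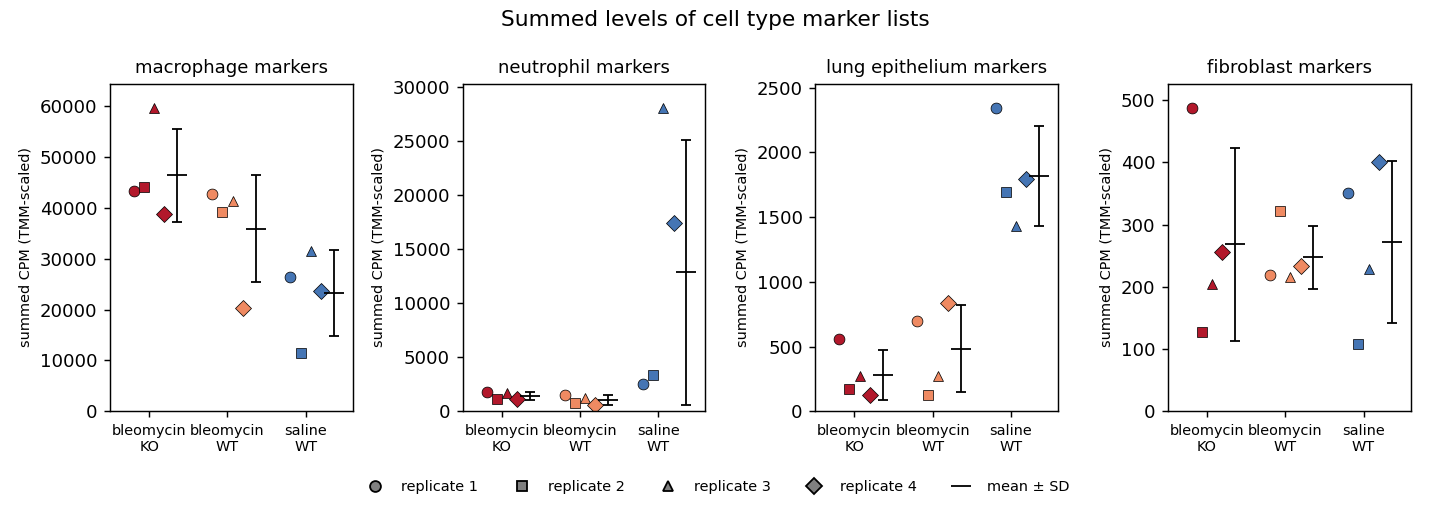
Summed TMM-scaled CPM of the macrophage, neutrophil, lung epithelial and fibroblast marker lists in each library (points, shaped by replicate) of bleomycin KO, bleomycin WT and saline WT, with the mean ± SD of 4 libraries. Neutrophil markers stand at 28065 and 17379 CPM in saline WT replicates 3 and 4, and epithelial markers stand at 122 to 835 CPM in the bleomycin libraries and at 1431 to 2343 CPM in the saline libraries.

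Leaving out saline WT replicate 2 and bleomycin WT replicate 4 together left 10 libraries, in which again none of the 9 members passed in edgeR's test. In that fit 81 of 18812 genes (0.431%) passed between bleomycin WT and saline WT, 0 (0%) between bleomycin KO and bleomycin WT and 121 (0.643%) between bleomycin KO and saline WT. C5ar1 then averaged 489 ± 94.6 CPM in bleomycin WT, against 1073 ± 332 CPM in saline WT (SD, n = 3 each), and the 2 groups did not overlap. Its log2 fold change was -1.13 (SE 0.28, adjusted p = 0.112 in edgeR) for bleomycin WT over saline WT, where the groups did not overlap with bleomycin WT lower for 9.72% of all genes. For bleomycin KO over saline WT it was -0.98 (SE 0.25, adjusted p = 0.109 in edgeR). Cfb averaged 19.9 ± 7.71 CPM in bleomycin KO (n = 4), 20.1 ± 7.70 CPM in bleomycin WT (n = 3) and 6.74 ± 2.66 CPM in saline WT (SD, n = 3), and all bleomycin libraries lay above all saline libraries. Its log2 fold change was 1.59 (SE 0.51, adjusted p = 0.216 in edgeR) for bleomycin WT over saline WT and 1.57 (SE 0.49, adjusted p = 0.164 in edgeR) for bleomycin KO over saline WT. Such groups were found for 10.9% and 8.14% of all genes in those comparisons. Cfp averaged 443 ± 17.8 CPM in bleomycin WT, against 398 ± 10.8 CPM in saline WT (SD, n = 3 each), and these 2 groups did not overlap either. Its log2 fold change was 0.15 (SE 0.15, adjusted p = 0.671 in edgeR) for bleomycin WT over saline WT. C4b came to 1.02 (SE 0.78, adjusted p = 0.573 in edgeR) for bleomycin WT over saline WT and 0.73 (SE 0.73, adjusted p = 0.647 in edgeR) for bleomycin KO over saline WT, with overlapping groups in both. For bleomycin WT over saline WT, C1qa came to 0.62 (adjusted p = 0.460), C1qc to 0.51 (adjusted p = 0.542) and C3 to -0.80 (adjusted p = 0.468) in edgeR. For bleomycin KO over saline WT, C1qa came to 0.73, C1qc to 0.67 and C3 to -0.73. The groups of these genes overlapped in both comparisons. C1qb came to 0.90 (adjusted p = 0.307 in edgeR) for bleomycin WT over saline WT in the 10 libraries. For bleomycin KO over saline WT it was 0.93 (adjusted p = 0.212 in edgeR). The C1qb groups, which were apart in the 12 libraries, overlapped in both comparisons here. C3ar1 came to 0.69 (adjusted p = 0.342 in edgeR) for bleomycin WT over saline WT. For bleomycin KO over saline WT it was also 0.69 (adjusted p = 0.260 in edgeR), and the C3ar1 groups overlapped in both.

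Levels of different members were compared per kb of exon. Averaged over the 12 libraries, C1qb stood at 4255 CPM per kb, C1qc at 2375 and C1qa at 2067 CPM per kb. The 3 C1q genes were followed by C5ar1 at 249.7, Cfp at 237 and C3ar1 at 149 CPM per kb, then by C3 at 33.0, C4b at 7.91 and Cfb at 5.57 CPM per kb. C1qb exceeded C1qc in 12 of 12 libraries, C1qa exceeded C5ar1 in 12 of 12 and C3ar1 exceeded C3 in 12 of 12. C1qc and C1qa could not be ordered in every library (C1qc higher in 10 of 12), nor C5ar1 and Cfp (C5ar1 higher in 5 of 12), nor C4b and Cfb (C4b higher in 8 of 12). Of the counts of all 9 members, the C1q genes held 83.7 to 87.6% in bleomycin KO, 84.7 to 86.1% in bleomycin WT and 60.0 to 84.2% in saline WT.

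A ratio of 2 members within a library does not depend on how libraries are scaled. C1qc over C1qb, in counts per kb, was 0.466, 0.555, 0.514 and 0.584 in bleomycin KO, 0.474, 0.502, 0.494 and 0.652 in bleomycin WT, and 0.614, 0.781, 0.640 and 0.687 in saline WT. All 4 bleomycin KO libraries lay below all 4 saline libraries, with a log2 difference of -0.36 (exact two-sided permutation p = 0.0286, the smallest that 4 against 4 allows). After Benjamini-Hochberg adjustment over the 9 ratio tests, p was 0.193, past no threshold. A single ratio at that smallest p could not have passed this adjustment by itself, however far apart its groups lay. The lack of a call among the 9 therefore does not show that ratios were alike. C1qa over C1qb differed by -0.39 on the log2 scale between bleomycin WT and saline WT (exact permutation p = 0.0857, adjusted p = 0.193).

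The receptor ratio C3ar1 over C5ar1 was 0.742, 0.809, 1.09 and 0.675 in bleomycin KO, 0.935, 0.762, 0.975 and 0.795 in bleomycin WT, and 0.559, 0.995, 0.139 and 0.198 in saline WT. The 2 lowest ratios are those of saline WT replicates 3 and 4, and replicate 2, the library of few counts, was as high as the bleomycin libraries. The log2 difference was 1.29 for bleomycin WT against saline WT (exact permutation p = 0.143, adjusted p = 0.257) and 1.21 for bleomycin KO against saline WT (exact permutation p = 0.171, adjusted p = 0.257). Between bleomycin KO and bleomycin WT it was -0.08 (exact permutation p = 0.657, adjusted p = 0.739). In the 10 libraries, a choice made after the data were seen, the log2 difference was 1.83 for bleomycin WT against saline WT (exact permutation p = 0.1, adjusted p = 0.206). For bleomycin KO against saline WT it was 1.71 (exact permutation p = 0.0571, adjusted p = 0.206). The log2 difference of C1qc over C1qb between bleomycin KO and saline WT was then -0.29 (exact permutation p = 0.0571, adjusted p = 0.206). In each of these tests of the 10 libraries the groups did not overlap. Their unadjusted p-values are the smallest that 3 against 3 libraries (0.1) and 4 against 3 libraries (0.0571) allow. Both lie above the threshold for a call, so these tests could not have passed whatever the ratios were.

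**Figure D4:**
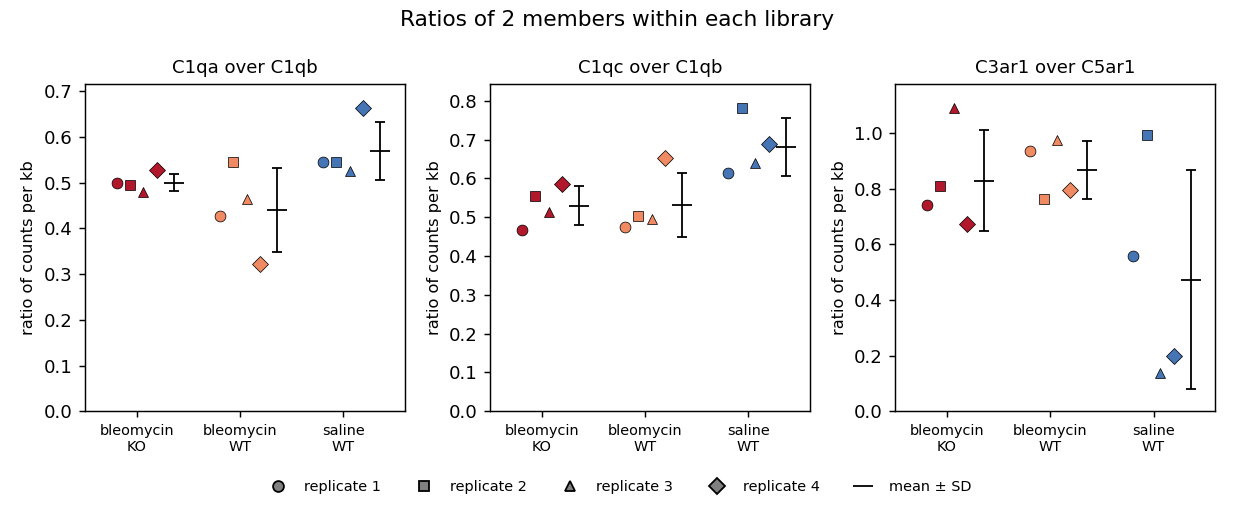
Ratios of counts per kb of 2 members within each library (points, shaped by replicate; linear axes from 0) for C1qa over C1qb, C1qc over C1qb and C3ar1 over C5ar1, with the mean ± SD of the 4 ratios in bleomycin KO, bleomycin WT and saline WT. The C1qc over C1qb ratios lie at 0.466 to 0.584 in bleomycin KO and at 0.614 to 0.781 in saline WT, and C3ar1 over C5ar1 is lowest in saline WT replicates 3 and 4.

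Members also differed in how alike their levels were from library to library. Likeness was measured as the root mean square difference of mean-centred log2 CPM over the 11 libraries other than saline WT replicate 2. The closest pairs were C1qc and C3ar1 at 0.176, C1qb and C1qc at 0.189, and C1qb and C3ar1 at 0.216, whereas C1qb and C5ar1 stood 1.09 apart. Among 7132 other genes that averaged at least 20 CPM, those nearest to the C1q genes were Gatm (0.197), Cd72 (0.197) and Cxcl16 (0.222). Gatm encodes an enzyme of creatine synthesis, Cxcl16 a chemokine and Cd72 a surface receptor. Nearest to C5ar1 were Agpat4 (0.285), Spi1 (0.289) and Ifitm2 (0.292), of which Spi1 encodes PU.1. Nearest to C3 was Bptf (0.367). All these genes share the libraries, their depth and their cell makeup, so the values are descriptions.

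The other genes of the cascade were read from 6 lists of 38 genes in all, chosen like the members with earlier results of these data known. Of these, 23 had enough reads to be tested and 0 passed in any of the 3 comparisons, and the 15 not tested averaged at most 1.54 CPM each. Their median log2 fold change was 0.02 for bleomycin WT over saline WT (12 positive and 11 negative), 0.42 for bleomycin KO over saline WT (15 positive and 8 negative) and -0.11 for bleomycin KO over bleomycin WT (11 positive and 12 negative). Among them were the C1 proteases C1ra and C1s1, the lectin pathway, the terminal components, and the regulators that hold complement in check on host cells.

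Receptors stood highest among these. Itgb2, the shared chain of the complement receptors CR3 and CR4, averaged 1316 ± 245 CPM in bleomycin KO and 1214 ± 742 CPM in bleomycin WT, against 976 ± 642 CPM in saline WT (mean ± SD of 4 libraries each). Its saline mean includes 151 CPM in replicate 2, on 14 counts, against 815 to 1616 CPM in the other saline libraries. Its bleomycin WT mean includes 467 CPM in replicate 4, the lowest of that group. Itgax, the other chain of CR4, had 505, 282, 272 and 277 CPM in bleomycin KO, 249, 698, 188 and 1199.9 CPM in bleomycin WT, and 243, 195, 176 and 207 CPM in saline WT. Its bleomycin KO libraries lay above all saline libraries, as did those of 8.17% of all genes tested. The log2 fold change of Itgax there was 0.70 (SE 0.53, adjusted p = 0.759 in edgeR). Its highest value is that of bleomycin WT replicate 4, and the log2 fold change for bleomycin WT over saline WT was 1.51 (SE 0.54, adjusted p = 0.254 in edgeR). In the 10 libraries Itgax came to 0.82 (SE 0.45, adjusted p = 0.427 in edgeR) for bleomycin WT over saline WT and 0.66 (SE 0.42, adjusted p = 0.453 in edgeR) for bleomycin KO over saline WT. Itgam, the other chain of CR3, averaged 102 ± 20.9 CPM in bleomycin KO and 117 ± 53.7 CPM in bleomycin WT, against 129 ± 71.8 CPM in saline WT. Cd93, once described as a C1q receptor, had 696 CPM in bleomycin WT replicate 4, against 31.1 to 122 CPM in the other 7 bleomycin libraries and 10.8 to 74.6 CPM in saline WT. C5ar2, another receptor of C5a, showed the same: 156 CPM in bleomycin WT replicate 4, against 6.27 to 22.4 CPM in the other 7 bleomycin libraries and 0 to 16.4 CPM in saline WT. In the 10 libraries the log2 fold change for bleomycin WT over saline WT was 0.28 (SE 0.45, adjusted p = 0.807 in edgeR) for Cd93 and 0.64 (SE 0.58, adjusted p = 0.636 in edgeR) for C5ar2.

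Of the regulators, Cr1l, which encodes Crry, the regulator of rodent cell surfaces, averaged 69.9 ± 10.4 CPM in bleomycin KO and 75.4 ± 41.4 CPM in bleomycin WT, against 59.2 ± 20.9 CPM in saline WT (mean ± SD of 4 libraries each). Serping1, the inhibitor of the C1 proteases, averaged 51.0 ± 14.1 CPM in bleomycin KO and 32.3 ± 21.9 CPM in bleomycin WT, against 32.9 ± 29.1 CPM in saline WT. Clu (clusterin) averaged 16.8 ± 12.3 CPM in bleomycin KO and 16.3 ± 9.11 CPM in bleomycin WT, against 29.9 ± 19.4 CPM in saline WT. Fcna, a ficolin of the lectin pathway, averaged 94.9 ± 61.0 CPM in bleomycin KO and 52.6 ± 6.72 CPM in bleomycin WT, against 61.6 ± 37.5 CPM in saline WT. For each of these 4 genes the groups overlapped in all 3 comparisons. Some of the means depend on the 2 libraries that stood apart. Bleomycin WT replicate 4 was at 3.02 CPM for both Serping1 and Clu, the lowest of its group, and at 137 CPM for Cr1l, the highest. In saline WT replicate 2, Serping1 had 0 counts, which allows up to 32.4 CPM at that depth. Clu had 1 count there, Cr1l 4 and Fcna 10.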

How the data were processed

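RNA from lung Cx3cr1+ macrophages was made into cDNA with SMART-Seq v4 and sequenced as single-end 50-base reads, per the labels' protocols; the kit does not mark strand. GSNAP, limma, Partek, GRCm38 and mm10 are named in the submitters' processing notes, without versions. The deposited values are raw counts per gene made by the authors. From them, CPM (TMM-scaled) and edgeR 4.0.16 quasi-likelihood fits (R 4.3.3; filterByExpr, robust dispersion, 12 libraries, group as the only term) were computed. Calls used a Benjamini-Hochberg adjusted p under 0.05 over 16679 genes, and intervals are 95%. Ratios were tested by exact permutation. The fit was tested on simulated data. Alternatives used DESeq2 1.42.0, limma 3.58.1, other scalings and fewer libraries. Intervals of the fits cover the spread between libraries, and floors of 3 counts cover counting error only. No 2 libraries agreed within sampling noise (lowest chi-square per degree of freedom 18.6 over 66 pairs). The named genes are the members, Il4ra, other complement genes averaging at least 20 CPM, and the 3 genes most like C1q, C3 and C5ar1; 3 genes that this rule names are not reported here. The members and lists were chosen with earlier results of these data known. Cr2, C7 and the genes with 1 high library were named after their values were seen.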

Additional observations from a re-analysis of the deposited data

Results flagged for a closer look

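Each of the 27 sets of 4 libraries (9 members in 3 groups) was searched for a library far from the other 3, and 2 were found; chance alone gives about 1 set in 20. C3 in saline WT replicate 3 was 161 CPM, while the other 3 saline libraries lay between 250.3 and 259 CPM (gap over range 0.907, above Dixon's critical value). Of those 3, replicate 2 rests on 24 counts, so how close they lie is uncertain. Cfp in bleomycin WT replicate 4 was 173 CPM, while the other 3 bleomycin WT libraries lay between 428 and 458 CPM (gap over range 0.897). Csf1r, Cx3cr1, Il4ra, C1qa, Cfb and C4b were also at their lowest within bleomycin WT in that library, and C1qc, C3ar1, C5ar1 and Cd68 at their highest.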

How the results depend on the processing

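With edgeR and with DESeq2, 0 members were called under each alternative run. With limma-voom and quality weights 1 member was called in each comparison with saline WT: C1qb at a log2 fold change of 1.41 for bleomycin WT and 1.37 for bleomycin KO over saline WT. Against saline WT, C1qa, C1qb, C1qc, C3ar1, Cfb and C4b had positive and C3 and C5ar1 negative log2 fold changes under every alternative run, C1qc at 0.00 with upper quartile scaling in bleomycin WT. RLE scaling put the median of all genes at -0.09 for bleomycin WT and -0.12 for bleomycin KO over saline WT, and upper quartile scaling at -0.31 and -0.27.

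The count of all genes called changed more. Between bleomycin WT and saline WT it was 1 with RLE, 1 with upper quartile scaling, 780 with no filter on low counts, 588 with DESeq2, 319 with limma-voom and quality weights, 0 in a fit of only the 8 libraries compared (1473 at an unadjusted p under 0.05), 81 in the 10 libraries, and 1 to 11 with single libraries left out, the 11 being without bleomycin WT replicate 4. Between bleomycin KO and saline WT it was 1 with RLE, 1 with upper quartile scaling, 694 with no filter, 653 with DESeq2, 232 with limma-voom, 1 in the fit of 8 libraries, 121 in the 10 libraries, and 0 to 18 with single libraries left out, with 18 without bleomycin WT replicate 4 and 10 without saline WT replicate 2. Between bleomycin KO and bleomycin WT it was 243 with no filter and 1 with DESeq2. The 10 and 8 libraries are fewer samples by construction; for the others the cause was not tested.

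Small differences changed sign, all without a call. For Cfp, bleomycin WT over saline WT was -0.17 with RLE, -0.74 with upper quartile scaling, -0.18 with DESeq2, -0.022 in the 8 libraries and -0.052 to 0.36 with single libraries left out, and bleomycin KO over saline WT was -0.0072 with RLE, -0.52 with upper quartile scaling and -0.0091 with DESeq2. The following are log2 fold changes of bleomycin KO over bleomycin WT. With RLE, C1qc was 0.0010, C3 0.0082 and C5ar1 0.0012. With upper quartile scaling, C1qb was 0.073, C1qc 0.090, C3 0.10 and C5ar1 0.089. With no filter, C1qb was 0.025, C1qc 0.032, C3 0.021 and C5ar1 0.033. With DESeq2, C1qc was 0.0015, C3 0.0087 and C5ar1 0.0017. With limma-voom, C1qc was 0.067, C3 0.57, C5ar1 0.12, Cfp -0.10 and C4b -0.13. In the 10 libraries, C1qb was 0.035, C1qc 0.16, C3 0.069, C3ar1 0.0044, C5ar1 0.16, Cfp -0.075, Cfb -0.012 and C4b -0.29. With single libraries left out, C1qb ranged over -0.10 to 0.040, C1qc -0.12 to 0.14, C3 -0.32 to 0.33, C4b -0.32 to 0.53, C5ar1 -0.16 to 0.14, Cfb -0.038 to 0.79 and Cfp -0.10 to 0.26. The log2 ratio of C1qc over C1qb then ranged over -0.046 to 0.11 and that of C3ar1 over C5ar1 over -0.22 to 0.012.

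Replicate numbers recur in the 3 groups, but same-numbered libraries did not deviate together (correlations -0.202 to 0.0665 over 12 pairs, 1 of 12 highest with its own number), so they were not taken as pairs. With the replicate number as a block, 2 genes were called between bleomycin WT and saline WT and 1 between bleomycin KO and saline WT, and 0 members. With that block, Cfp was -0.036 for bleomycin WT over saline WT, and C3 0.030, C5ar1 0.034 and C4b -0.13 for bleomycin KO over bleomycin WT. At 60598 counts, 3 counts in saline WT replicate 2 equal 32.4 CPM, so values below that level rest there on fewer than 3 counts. This limits C4b, Cfb and every other gene at such levels in that library.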

Other observations

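Some other complement genes had 1 library well above the rest. Colec10, a collectin of the lectin pathway, was at 17.8 CPM (73 counts) in saline WT replicate 1, at 0.699 CPM in bleomycin WT replicate 1 and at 0 counts in the other 10 libraries. C7, a terminal component, was at 51.6 CPM in saline WT replicate 1, against 1.95 to 10.5 CPM in the bleomycin libraries. Cfd, which encodes factor D, had 78 counts (6.33 CPM) in bleomycin WT replicate 3 and at most 15 counts elsewhere. Cd59a, an inhibitor of the membrane attack complex, was at 86.4 CPM in bleomycin WT replicate 4, against 1.44 to 5.76 CPM in the other 7 bleomycin libraries. Cr2, a receptor known from B cells, averaged 5.69 CPM in bleomycin KO, 8.29 CPM in bleomycin WT, against 1.28 CPM in saline WT. It had 0 counts in saline WT replicate 2, where 3 counts equal 32.4 CPM, so that library could not show whether the groups overlap. Its adjusted p in edgeR was 0.273 for bleomycin WT and 0.576 for bleomycin KO against saline WT.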
